A study of Mus musculus with 6 samples.

Results

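The keratins of corneal epithelium described here are 10 genes, Krt5, Krt14, Krt15, Krt12, Krt8, Krt18, Krt19, Krt7, Krt4 and Krt13, taken by name from the 57180 genes of the files, where 54 genes carry a keratin symbol. All 10 were found by identifier, had counts in every library and passed the filter on low counts. The 6 RNA-seq libraries were labelled as primary corneal endothelial cells of mouse cornea, 3 from mice homozygous for the Q455K allele of Col8a2 (Col8a2 group, the controls) and 3 from mice with that same homozygous allele and a heterozygous knockout of Tcf4 (Tcf4+/- group). Both groups thus carry the Col8a2 mutation, which models Fuchs endothelial corneal dystrophy, wild-type mice are not analysed here, and the labels give no treatment other than the genotype. Age, how the endothelium was separated from the rest of the cornea and the number of animals behind a library are not stated in the labels. The p-values below therefore reflect only the spread among these samples, which may be technical in part.

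Keratins are the intermediate filament proteins of epithelia, built from pairs of an acidic type I and a basic type II chain. Stratified epithelia make Krt5 and Krt14 in their basal layer, Krt15 is a further basal type I keratin that is high at the limbus, and Krt12 is the type I keratin of differentiated corneal epithelium, in which dominant missense changes cause Meesmann corneal dystrophy in people. Krt4 and Krt13 form the pair of moist stratified mucosae such as the conjunctiva, while Krt8, Krt18, Krt7 and Krt19 belong mainly to single-layered epithelia, with Krt19 also in conjunctiva and limbus. In the annotation used for names, Krt5, Krt8, Krt18, Krt7 and Krt4 lie on chromosome 15 and Krt14, Krt15, Krt12, Krt19 and Krt13 on chromosome 11, so Krt18 is the type I gene that lies with the type II genes.

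All libraries were deep for these genes. Total estimated counts ran from 30344161 to 54265479 per library, and counts of a single member from 1145 to 216485, so counting error is small beside the spread between libraries. Tcf4 itself, the gene named by the label, was measured in CPM, that is, counts relative to library size after TMM scaling. It stood at 313, 470 and 430 CPM in the Col8a2 replicates and at 440, 599 and 374 CPM in those labelled Tcf4+/- (log2 fold change 0.22, 95% interval -0.52 to 0.96), so it was not lower in that group when counted over the whole gene, and the group is named by its label only. A deletion of part of the gene could leave counts over the rest, so this sum checks the label only in part. In keratin make-up Tcf4+/- replicate 2 stood apart from the other libraries, and Tcf4+/- replicates 2 and 3 held more lens transcripts, with values given further on.

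The promoters of members that are read together below are shown here, 250 bases up to the annotated RefSeq start on build GRCm38.p6, 5′ to 3′ on the strand of the gene. Krt12 and Krt5 are the corneal type I keratin and the basal type II keratin whose levels moved together over the libraries, and Krt8 and Krt18 form a filament pair whose levels did not. Capitals mark E boxes, the letters CANNTG that read the same on both strands and that E proteins such as Tcf4 can bind.
Krt12 (chr11:99422260-99422509, minus strand): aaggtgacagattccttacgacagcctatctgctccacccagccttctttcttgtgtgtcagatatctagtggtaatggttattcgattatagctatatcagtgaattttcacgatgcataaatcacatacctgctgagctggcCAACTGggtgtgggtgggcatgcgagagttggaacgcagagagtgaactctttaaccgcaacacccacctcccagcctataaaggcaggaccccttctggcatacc
Krt5 (chr15:101712906-101713155, minus strand): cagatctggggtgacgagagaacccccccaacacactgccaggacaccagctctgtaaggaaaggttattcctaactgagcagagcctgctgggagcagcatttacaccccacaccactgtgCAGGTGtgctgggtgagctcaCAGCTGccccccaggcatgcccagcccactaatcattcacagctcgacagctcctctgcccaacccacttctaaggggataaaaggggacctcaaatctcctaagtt
Krt8 (chr15:102004343-102004592, minus strand): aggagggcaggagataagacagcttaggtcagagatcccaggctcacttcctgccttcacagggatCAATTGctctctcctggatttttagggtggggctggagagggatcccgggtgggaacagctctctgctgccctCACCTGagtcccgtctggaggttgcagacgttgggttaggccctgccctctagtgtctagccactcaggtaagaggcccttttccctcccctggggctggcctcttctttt
Krt18 (chr15:102027966-102028215, plus strand): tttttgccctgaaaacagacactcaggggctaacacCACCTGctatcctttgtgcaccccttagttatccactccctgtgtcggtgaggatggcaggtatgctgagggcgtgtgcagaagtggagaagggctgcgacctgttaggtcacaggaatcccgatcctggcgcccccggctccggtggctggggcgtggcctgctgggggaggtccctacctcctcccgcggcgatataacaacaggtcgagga

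Krt12 and Krt18 held 1 E box each in this window and Krt5 and Krt8 held 2 each. Of 32851 RefSeq promoter windows of the same length, 66.2% held at least 1, so most promoters hold such letters. The narrower form CACCTG, or CAGGTG on the other strand, was found once in Krt5, Krt8 and Krt18 and in 17.2% of all windows, and it is itself an E box. The letters TATAAA stood 29 bases before the start of Krt12 and in 12.4% of all windows, searched on both strands. The letters CACCC or GGGTG, a core that Klf factors can bind, occurred 4 times in Krt12, 3 times in Krt5, 2 times in Krt8 and 1 time in Krt18, and in 52% of all windows. Of the 10 members, 7 had an entry in the promoter table. These matches describe letters only and show neither binding nor use of a site.

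Krt12, the keratin of corneal epithelium, was the most abundant member, though the libraries were labelled as endothelium. Its level, in CPM, was 3796, 1909 and 2436 CPM in Col8a2 replicates 1, 2 and 3, and 4585, 501 and 2288 CPM in Tcf4+/- replicates 1, 2 and 3. Tcf4+/- replicate 2 thus stood far below the other libraries, and the range of the Tcf4+/- group enclosed that of the Col8a2 group. Ordered by deposited TPM, Krt12 ranked 47, 59 and 57 among all genes in the Col8a2 replicates and 35, 361 and 106 in the Tcf4+/- replicates. In bulk samples, fewer cells of a type and less RNA per cell cannot be told apart.

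Set against Col8a2, the collagen of Descemet membrane made by the endothelium, Krt12 was the higher transcript per unit length in 4 of 6 libraries. The ratio of their per-length levels (TMM-scaled CPM per kilobase of effective length) was 3.11, 0.980 and 1.09 in the Col8a2 replicates and 2.42, 0.198 and 2.44 in the Tcf4+/- replicates. The lowest ratio came from Tcf4+/- replicate 2, where Krt12 was lowest and Col8a2, at 6208 CPM, highest. Krt12 alone took 0.369%, 0.203% and 0.240% of all counts in the Col8a2 replicates and 0.452%, 0.0508% and 0.223% in the Tcf4+/- replicates. All 10 members together took between 0.303% and 0.693%.

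**Figure D1:**
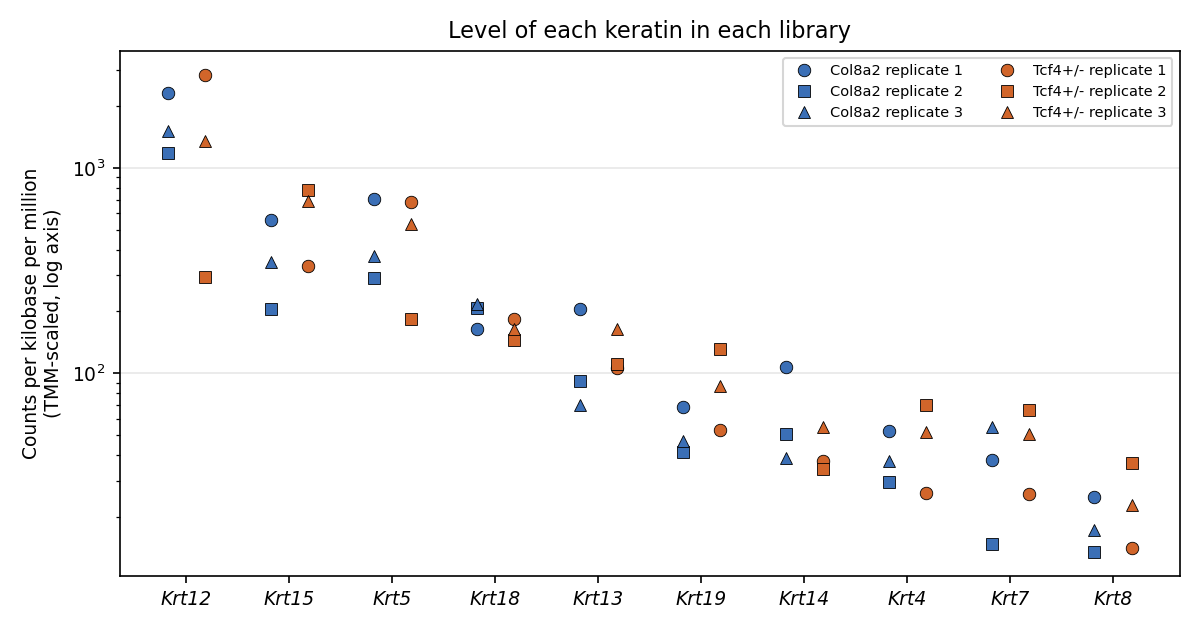
Level of the 10 keratins in each library, as TMM-scaled CPM per kilobase of effective length on a log axis, with blue for the Col8a2 group, orange for the Tcf4+/- group and a symbol for each replicate number. Krt12 spans 295 to 2846 and Krt18 only 146 to 216, and in every keratin the symbols of the groups overlap.

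Among the basal keratins, Krt5 followed Krt12. Krt5, the basal type II chain, stood at 1398, 571 and 728 CPM in the Col8a2 replicates and at 1328, 374 and 1090.4 CPM in the Tcf4+/- replicates, so the same 2 libraries were highest and the same library lowest as for Krt12. The Pearson correlation of log2 CPM of Krt5 and Krt12 over the 6 libraries was 0.91, given as a description of points that share their library scaling. The per-length ratio of Krt12 to Krt5 was 3.29, 4.06 and 4.06 in the Col8a2 replicates and 4.19, 1.61 and 2.52 in the Tcf4+/- replicates.

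Krt15 did not follow Krt12. It stood at 819, 299 and 504 CPM in the Col8a2 replicates and at 482, 1195 and 1059 CPM in the Tcf4+/- replicates. Tcf4+/- replicate 2, lowest for Krt12, was highest for Krt15, and Col8a2 replicate 2 was lowest. The per-length ratio of Krt15 to Krt12 was 0.240, 0.174 and 0.231 in the Col8a2 replicates and 0.118, 2.65 and 0.515 in the Tcf4+/- replicates. Krt15 exceeded Krt12 in Tcf4+/- replicate 2 and in no other library.

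Krt14, the usual basal partner of Krt5, was scarce beside it. It stood at 153, 74.0 and 50.6 CPM in the Col8a2 replicates and at 49.2, 50.6 and 77.2 CPM in the Tcf4+/- replicates. Col8a2 replicate 1 stood well above the others, which overlapped. Per length, Krt5 exceeded Krt14 by 6.59, 5.75 and 9.58 times in the Col8a2 replicates and by 18.1, 5.34 and 9.77 times in the Tcf4+/- replicates. Krt15 exceeded Krt14 in all 6 libraries, by 4.06 to 22.8 times. Estimated counts of Krt14, Krt5 and Krt12 were fractional in all 6 libraries, those of Krt15 in 5, Krt8 in 4 and Krt7 in 1, as arises where reads are divided between similar genes. Counts of Krt18, Krt19, Krt4 and Krt13 were exactly whole in all 6, and how far such division moved a value was not tested.

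The mucosal keratins were present in all libraries, below Krt12 in each. Krt13, the type I chain of the pair, stood at 293, 128 and 97.2 CPM in the Col8a2 replicates and at 148, 162 and 243 CPM in the Tcf4+/- replicates. Krt4, its type II partner, stood at 100.2, 56.3 and 70.6 CPM in the Col8a2 replicates and at 49.2, 139 and 103 CPM in the Tcf4+/- replicates. The highest library was Col8a2 replicate 1 for Krt13 and Tcf4+/- replicate 2 for Krt4, and the groups overlapped for both. The per-length ratio of Krt13 to Krt4 ran from 1.58 in Tcf4+/- replicate 2 to 4.10 in Tcf4+/- replicate 1.

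Krt18 was the steadiest member. This type I keratin of simple epithelia stood at 201, 250 and 260 CPM in the Col8a2 replicates and at 219, 187 and 211 CPM in the Tcf4+/- replicates, so its highest library was 1.39 times its lowest. The same quotient was 9.15 for Krt12 and 2.82 to 4.004 for the other 8 members. The SD of its log2 CPM over the 6 libraries was 0.18, against a median of 0.38 over the 3761 genes tested with a mean of at least 50 CPM.

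Krt8, the type II partner of Krt18, did not keep step with it. It stood at 43.6, 23.3 and 29.8 CPM in the Col8a2 replicates and at 24.3, 65.8 and 41.3 CPM in the Tcf4+/- replicates, highest where Krt18 was lowest. Per length, Krt18 exceeded Krt8 by 6.57, 15.4 and 12.5 times in the Col8a2 replicates and by 13.0, 3.99 and 7.17 times in the Tcf4+/- replicates. The correlation of the log2 CPM of the pair over the 6 libraries was -0.82, again as a description.

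Krt19 and Krt7 completed the simple keratins. Krt19, a small type I keratin, stood at 77.8, 48.3 and 56.0 CPM in the Col8a2 replicates and at 62.1, 161 and 104 CPM in the Tcf4+/- replicates. Krt7, a type II keratin of ducts and simple epithelia, stood at 118, 42.3 and 144 CPM in the Col8a2 replicates and at 84.98, 154 and 115 CPM in the Tcf4+/- replicates. Both were highest in Tcf4+/- replicate 2 and lowest in Col8a2 replicate 2, and the groups overlapped.

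The members divided by the libraries in which they were high. Tcf4+/- replicate 2 was the highest library for 5 members, Krt15, Krt8, Krt19, Krt7 and Krt4, and the lowest for 3, Krt5, Krt12 and Krt18. Col8a2 replicate 2 was the lowest for 4 members and the highest for none, and Col8a2 replicate 1 was the highest for 3 and the lowest for none. Over the 6 libraries, log2 CPM of Krt8 had correlations of 0.98 with Krt4, 0.94 with Krt19 and 0.92 with Krt15, and of -0.66 with Krt12.

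**Figure D2:**
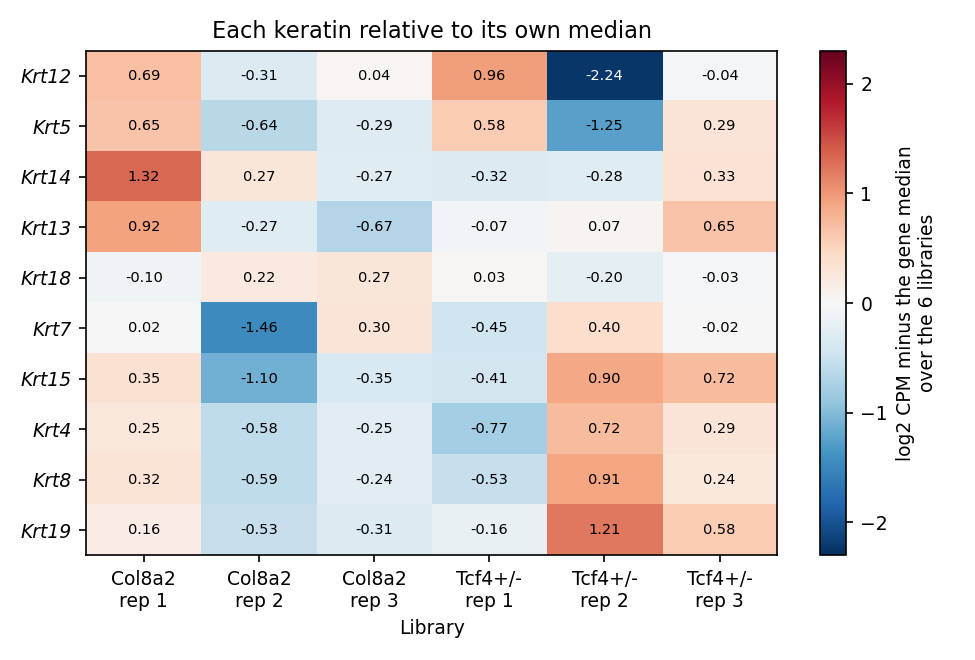
Each cell gives log2 CPM of a keratin in a library minus the median of that keratin over the 6 libraries (red above, blue below). Tcf4+/- replicate 2 is at -2.24 for Krt12 and -1.25 for Krt5 but at 0.90 for Krt15 and 1.21 for Krt19, while Krt18 stays within -0.20 and 0.27 in all libraries.

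In keratin make-up, the share of Krt12 was close in the 3 Col8a2 libraries and spread out in the Tcf4+/- group. Of the summed per-length level of the 10 members, Krt12 made up 54.7%, 55.5% and 55.7% in the Col8a2 replicates, a mean of 55.3 ± 0.538% (SD, n = 3). The Tcf4+/- libraries gave 66.1%, 15.9% and 42.5%, a mean of 41.5 ± 25.1% (SD, n = 3), so they lay on both sides of the narrow Col8a2 range. The basal keratins Krt5, Krt14 and Krt15 made up 32.3%, 25.7% and 28.0% in the Col8a2 replicates and 24.4%, 53.9% and 40.4% in the Tcf4+/- replicates. Other shares did vary within the Col8a2 group, with Krt18 at 3.87%, 9.77% and 7.99% and Krt7 at 0.889%, 0.694% and 2.03%. The simple keratins took 7.0%, 13.1% and 12.4% against 6.4%, 20.5% and 10.2%, and the mucosal pair 6.1%, 5.7% and 4.0% against 3.1%, 9.7% and 6.8%, in the same order of libraries. Krt12 was the largest single share in 5 libraries and Krt15, at 42.2%, in Tcf4+/- replicate 2.

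**Figure D3:**
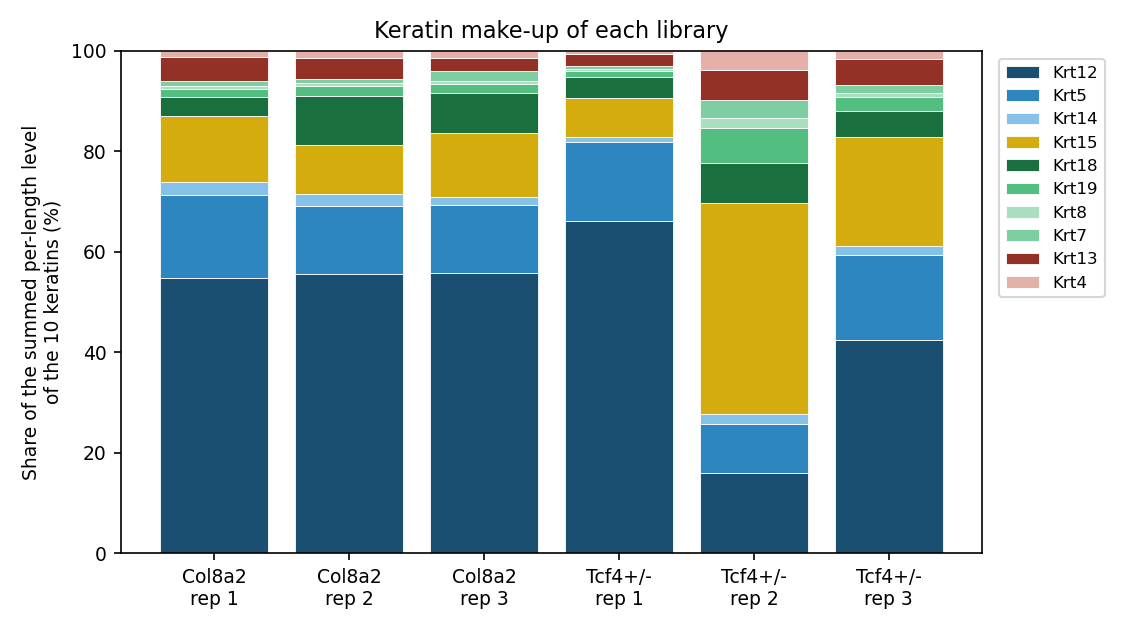
Stacked bars of the share (%) of each keratin in the summed per-length level of the 10 members, by library, starting with Krt12 at the base. Krt12 fills 54.7% to 55.7% of the bar in all 3 Col8a2 libraries, but 66.1%, 15.9% and 42.5% in the Tcf4+/- replicates.

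In order of mean per-length level over the 6 libraries the members ran Krt12 (1581 ± 896), Krt15 (486 ± 226), Krt5 (460 ± 213), Krt18 (180.1 ± 27.5), Krt13 (125 ± 50.2), Krt19 (71.3 ± 33.8), Krt14 (53.7 ± 27.2), Krt4 (44.5 ± 16.6), Krt7 (41.7 ± 19.3) and Krt8 (21.5 ± 8.66), each with its SD over 6. Of the 9 pairs of neighbours in this order, 2 kept their order in every library and the others did not. Krt5 exceeded Krt18, and Krt7 exceeded Krt8, in all 6 libraries, and Krt15 exceeded Krt5 in only 2 of 6. Type I chains exceeded type II chains among the 10 members by 3.81 to 5.10 times per length, and by 1.70 to 3.03 times once the 17 other epithelial keratins were added.

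Between the groups, no keratin passed the test. Of the 10 members, 0 were called by the quasi-likelihood test of edgeR at a Benjamini-Hochberg adjusted p of 0.05, where 0% of the 17639 genes tested were called, and every member had an adjusted p of 0.99988. DESeq2, limma voom and limma on log2 TPM also called 0 members, while DESeq2 called 107 other genes, 0.513% of those it gave an adjusted p. At an unadjusted edgeR p under 0.05 stood 1 member, Krt19, against 2.42% of all genes tested. The groups of 3 libraries did not overlap in 0 members, against 8.1% of all genes tested.

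Krt19 had the largest fitted difference, from a mean of 60.7 ± 15.3 CPM (Col8a2) to 109 ± 49.6 CPM (Tcf4+/-; SD, n = 3 each). On the log2 scale its fold change was 0.84 with a 95% interval from 0.01 to 1.68 (edgeR, unadjusted p = 0.0480). Tcf4+/- replicate 1, at 62.1 CPM, lay below Col8a2 replicate 1, at 77.8 CPM, so the groups overlapped. Without Tcf4+/- replicate 2 alone the log2 fold change was 0.47 (edgeR, unadjusted p = 0.228), and the unadjusted p was 0.0652 with limma voom and 0.169 with limma on log2 TPM. Without Tcf4+/- replicates 2 and 3, a choice made after seeing the data that leaves 1 library in the group, the log2 fold change of Krt19 was 0.03.

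The other members had intervals on both sides of 0. Krt15 had a log2 fold change of 0.75 (95% interval -0.31 to 1.82) and Krt14 of -0.65 (-1.57 to 0.28). For Krt12, with a mean of 2713 ± 974 CPM (Col8a2) and 2458 ± 2047 CPM (Tcf4+/-; SD, n = 3 each), the log2 fold change was -0.14 with an interval from -1.63 to 1.35, which as a fold runs from 0.323 to 2.54. Krt18 had the narrowest interval, from -0.82 to 0.41 around -0.20, which as a fold is 0.868 with bounds of 0.567 and 1.33. Krt5, Krt8, Krt7, Krt4 and Krt13 had log2 fold changes of 0.05, 0.44, 0.22, 0.36 and 0.10.

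In all, 7 members were fitted higher and 3 lower, where 50.1% of all genes tested were fitted higher, and the median of the members was 0.16 against 0.00 for all genes tested. Several of these signs rest on single libraries. The log2 fold change of Krt12 turned to 0.35 without Tcf4+/- replicate 2 and to 0.18 without Col8a2 replicate 1, and that of Krt7 turned to -0.14 without Col8a2 replicate 2. That of Krt14 was -0.08 without Col8a2 replicate 1, its highest library. Leaving out 1 library at a time, that of Krt5 lay between -0.30 and 0.52 and that of Krt13 between -0.19 and 0.71. The median of the members was -0.11 without Col8a2 replicate 2 and 0.56 without Col8a2 replicate 1. Krt14, Krt18 and Krt19 kept their sign under all 15 other settings.

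**Figure D4:**
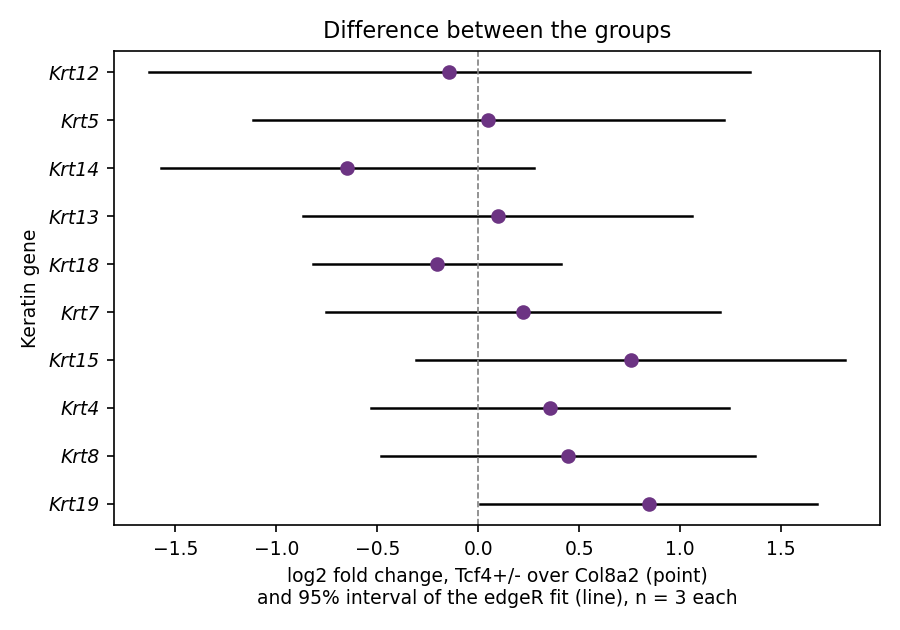
Fitted log2 fold change of each keratin, Tcf4+/- over Col8a2 (points), with the 95% interval of the edgeR fit (lines), 3 libraries in each group. The intervals of 9 members cross 0 and that of Krt19 starts at 0.01, and no member passed after adjustment.

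Other keratins were led by Krt6a and Krt6b, near-identical type II keratins of wounded and proliferating stratified epithelium. Krt6b averaged 706 ± 389 CPM (Col8a2) and 890.0 ± 376 CPM (Tcf4+/-), and Krt6a 587 ± 289 and 652 ± 340 CPM (mean ± SD, n = 3 each), with the division of reads between these copies uncertain. Of 17 other epithelial keratins, 12 were tested, 0 passed in either direction with edgeR (0 with an unadjusted p under 0.05), 7 were fitted higher and 5 lower, and 1, Krt9, was at 0 in all libraries. Of the keratins of epidermis, Krt10 stood at 6.56 to 27.95 CPM, Krt1 at 0.828 to 4.84 CPM and Krt2 at 13 counts in Col8a2 replicate 3 and 0 in the others. Krt16 stood at 12.2 CPM in Col8a2 replicate 1 and at 0 to 3.00 CPM elsewhere. Krt10 had the smallest p in this list, at 9.24 ± 2.60 against 18.5 ± 8.24 CPM, with a log2 fold change of 0.998 (edgeR, unadjusted p = 0.0655). Its groups did not overlap, which held for 1 of the 12 tested and for 8.1% of all genes tested. Log2 fold changes of Krt17, Krt20, Krt23, Krt78 and Krt80 were -0.20, 0.07, 0.20, 0.60 and -0.07.

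The proteins that anchor or replace keratin filaments also showed no call. Of 16 tested genes for other intermediate filaments and filament partners, 0 passed in either direction with edgeR, and the median log2 fold change was -0.09. An unadjusted edgeR p under 0.05 was seen in 3 of them, against 2.42% of all genes tested. Among these 3 is Bfsp1, which is also in the lens list. Perp, a desmosome protein of stratified epithelium, averaged 364 ± 189 CPM (Col8a2) and 420 ± 241 CPM (Tcf4+/-). Its lowest value, 152 CPM, was in Tcf4+/- replicate 2 like that of Krt12. Of the other partners, Pkp3 was lowest in that library too, at 35.1 CPM. Ppl, Pkp1, Evpl and Jup were lowest in Col8a2 replicate 2, at 67.3, 17.85, 37.6 and 154 CPM. Dsp was lowest in Tcf4+/- replicate 3, at 72.1 CPM, and Plec in Tcf4+/- replicate 1, at 147 CPM. Vimentin (Vim), the filament protein of mesenchymal cells and corneal endothelium, stood at 411 ± 185 and 347 ± 72.8 CPM. Lamin B1 (Lmnb1) stood at 16.2 ± 1.79 and 7.31 ± 2.15 CPM with no overlap between the groups (log2 fold change -1.15, edgeR unadjusted p = 0.0336), and the lens filament gene Bfsp1 at 3.72 ± 3.79 and 30.7 ± 26.1 CPM (mean ± SD, n = 3 each).

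Markers of corneal epithelium ranged from abundant to nearly absent. All 30 genes of the list were tested, 0 passed (edgeR, 0 with an unadjusted p under 0.05), 0 were at 0 in all libraries, and the median log2 fold change was 0.14. Their summed level ran from 5976 to 13409 CPM (Col8a2) and 6138 to 13646 CPM (Tcf4+/-), with Col8a2 replicate 2 and Tcf4+/- replicate 2 the lowest of their groups. The highest members were Aldh3a1, a crystallin-like enzyme of corneal epithelium and keratocytes, at 4143 ± 1672 and 4059 ± 1155 CPM, and Lypd2 at 1532 ± 888 and 2015 ± 1533 CPM (mean ± SD, n = 3 each). Cdh1 and Epcam, general epithelial adhesion genes named after their values were seen, were low, at 4.13 to 18.4 and 7.93 to 14.1 CPM. Ly6d, among those of smallest p, lay at 0 to 0.356 CPM in one group and 0 to 2.57 CPM in the other. Krt12 and Krt15 are not in this list, and their CPM is given here relative to its sum. For Krt12 this ratio was 28.3%, 31.9% and 24.0% in the Col8a2 replicates and to 40.1%, 8.16% and 16.8% in the Tcf4+/- replicates. For Krt15 it was 19.5% in Tcf4+/- replicate 2 and 4.21% to 7.76% in the other libraries. Against a single marker the order differed, since the per-length ratio of Krt12 to Slurp1, a secreted protein of corneal epithelium, was 0.433 in Tcf4+/- replicate 2 and lower, 0.369, in Tcf4+/- replicate 3.

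Goblet cell markers were low, while Psca and Aqp5 of the same list were high. In the list for conjunctiva and goblet cells, 12 of 13 genes were in the files and 9 were tested, 0 passed (edgeR, 0 with an unadjusted p under 0.05), and Tff3 and Gcnt3 were at 0 in all libraries. Its summed level, 772 to 3266 CPM (Col8a2) and 824 to 4100.4 CPM (Tcf4+/-), was nearly all Psca (1601 ± 1150 and 1953 ± 1289 CPM) and the water channel Aqp5 (777 ± 350 and 828 ± 662 CPM), which is also made by corneal epithelium. Psca stood at 2127, 283 and 2394 CPM in the Col8a2 replicates and at 1978, 652 and 3230 CPM in the Tcf4+/- replicates. It was lowest in replicate 2 of each group, as was Lypd2 of the corneal epithelium list. Which cells made Psca was not tested. The goblet mucin Muc5ac stood at 0.595, 39.95 and 33.3 CPM in the Col8a2 replicates and at 24.0, 0.963 and 7.16 CPM in the Tcf4+/- replicates. Tcf4+/- replicate 2, with the highest Krt4 and Krt19, had Muc5ac near 1 CPM and the lowest Aqp5, 159 CPM. Muc5ac was lower still in Col8a2 replicate 1, and Psca was lower in Col8a2 replicate 2. Which cells made Krt4 and Krt19 was not tested. Of the genes of smallest p, Tff1 had a log2 fold change of -1.06, and Foxa3 lay at 0 to 0.138 CPM in the Col8a2 group and 0.291 to 1.69 CPM in the Tcf4+/- group.

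The list for limbal and progenitor epithelium had 8 of 10 genes tested, 0 called (edgeR, 0 with an unadjusted p under 0.05) and a median log2 fold change of -0.17. Abcb5 was at 0 in all libraries. The limbal gene Gpha2 stood at 292, 264 and 338 CPM in the Col8a2 replicates and at 388, 423 and 472 CPM in the Tcf4+/- replicates. Its groups did not overlap, as in 8.1% of all genes tested, and it is named here after its values were seen. The log2 fold change of Gpha2 was 0.52 (edgeR, unadjusted p = 0.102). Socs3 of the same list did not overlap either, in the opposite direction, at 28.0 to 31.1 CPM (Col8a2) and 5.54 to 24.8 CPM (Tcf4+/-). Of the 8 tested genes, 3 were fitted higher and 5 lower. Trp63, the factor of basal stratified epithelium, which is also in the corneal epithelium list, stood at 14.6, 3.47 and 7.25 CPM against 17.1, 4.96 and 18.4 CPM, so Tcf4+/- replicate 2 was not high for it. Cd63, Ifitm3, Socs3 and Atf3, the others named by rule, are widely expressed and had log2 fold changes of -0.19, -0.43, -1.18 and 1.52.

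Transcripts of other eye tissues differed between libraries, and their part in the keratin values was not tested. The corneal endothelium list had all 14 genes tested and 0 called, with Car3 and Col8a2 highest. It summed to 18695 to 28642 CPM (Col8a2) and 14232 to 29246 CPM (Tcf4+/-), so the sum was high in all libraries. The lowest sum, 14232 CPM, was in Tcf4+/- replicate 3. There the gene Col8a2 stood at 2297 CPM against 3033 to 6208 CPM elsewhere, and Gpc4 at 103 CPM against 429 to 638 CPM. Car3, at 4434 CPM there, lay within the 3565 to 6228 CPM of the other libraries. The stromal keratocyte list (10 genes, 0 called, led by Dcn and Col1a2) summed to 6300 to 12244 CPM (Col8a2) and 9122 to 18551 CPM (Tcf4+/-), highest in Tcf4+/- replicate 2. The vascular and lymphatic list (10 genes, 0 called, 2 with an unadjusted p under 0.05 by edgeR, 9 fitted higher, median log2 fold change 0.94) summed to 307 CPM there against 34.0 to 137 CPM in the other libraries, with Plvap at 120 CPM against 6.501 to 26.4 CPM. The lens list (13 of 15 genes tested, 0 called, 8 with an unadjusted p under 0.05 by edgeR) summed to 4200.0 and 11175 CPM in Tcf4+/- replicates 2 and 3 and to 34.5 to 628 CPM elsewhere, led by Cryaa and Crybb2. Over all genes tested, 2.42% had an unadjusted p under 0.05 by edgeR and 50.1% were fitted higher. The pigment and ciliary epithelium list (14 genes, 0 called, led by Ttr and Dct) summed to 932 to 2350 CPM (Col8a2) and 1697 to 2158 CPM (Tcf4+/-). The genes of smallest p in these lists were Gpc4 and Foxc1 (endothelium, log2 fold changes -0.70 and 0.31), Col1a1 and Lum (stroma, 0.88 and 0.84), Rpe65 and Best1 (pigment epithelium, 0.63 and 1.75) and Plvap (1.85). Crybb3 had 4.29, Crygd was at 0 in all Col8a2 libraries and at 0.402 to 2.09 CPM in the Tcf4+/- group, and the lymphatic gene Lyve1 lay at 0 to 0.0606 and 0.371 to 3.33 CPM, while Kdr led the vascular list with 0.53.

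Genes whose pattern was most like that of Krt12 were sought over all libraries. By Pearson correlation of log2 CPM over the 6 libraries, among 11219 other named genes of at least 5 CPM, the nearest included Eif4e2 (0.99), the desmosomal cadherin Dsg1a (0.99), Cacybp (0.99) and Aldoc (0.98), and 29 genes exceeded 0.95. Dsg1a ran from 6.78 CPM in Tcf4+/- replicate 2 to 60.3 CPM in Tcf4+/- replicate 1. Eif4e2 ran only from 46.3 to 63.7 CPM. The 5 nearest to Krt8 were Krt4 (0.98), Slc45a2 (0.97), Emsy (0.96), Arxes1 (0.95) and Dusp10 (0.94), and 3 genes exceeded 0.95. With 6 points and this many genes high values arise easily, and they are given as a description.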

How the data were processed

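Per the labels' protocols, full-length cDNA (SMART-Seq HT) was made into Nextera XT libraries; strand is not described. The submitters' processing notes name build GRCm39, RSEM, STAR, DESeq2, FastQC 0.12.1 and fastp 0.23.2, without roles. Per gene, the authors deposited expected counts, which are estimates unscaled for depth, and 9.97% of them are fractional. The authors also deposited TPM, scaled to effective length and to an equal sum in each library. Genes were named by identifier (51884 of 57180 matched) from GENCODE M21 of build GRCm38, used for names, gene types and chromosomes only, and promoters came from RefSeq.

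Counts were rounded, filtered with filterByExpr (17639 genes left), scaled by TMM (factors 0.973 to 1.06) and tested with the robust quasi-likelihood test of edgeR 4.0.16 (R 4.3.3), on group alone, with p-values adjusted by Benjamini-Hochberg over all genes. DESeq2 1.42.0 and limma 3.58.1 were alternatives. Log2 CPM used a prior count of 2, and log2 TPM a pseudocount of 1. The smallest p of an exact permutation test of 3 against 3 libraries is 0.1. The fit was run on simulated counts with known changes in 200 genes, and the outcome is not reported here. The common biological coefficient of variation, the spread between libraries beyond counting error, was 0.744. An absence of calls does not show equal levels. No pair of libraries agreed within sampling noise.

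The members and gene lists were chosen with earlier results of these data known. The rule for named genes takes all 10 members, in each list the 2 genes of highest level and the 2 of smallest p, any other keratin above 10 CPM in a library, and the 5 genes most like Krt12 and Krt8. Muc5ac, Tff3, Gcnt3, Abcb5, Cdh1, Epcam, Slurp1, Gpha2, Trp63, Kera, Krt1, Krt2 and Krt9 were named after their values were seen. So were Pkp3, Ppl, Pkp1, Evpl, Jup, Dsp and Plec. Of the list genes, Eppk1 and Muc4 had no identifier in the files and are not analysed here. Some genes that the rule names are not reported here.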

Additional observations from a re-analysis of the deposited data

How the results depend on the processing

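The count of keratin members called, 0, was the same under all 15 other settings, including DESeq2, limma voom, limma on log2 TPM and each library left out. The count of all genes called, 0, was 107 with DESeq2 and ranged from 0 to 4 when each library was left out, the 4 arising without Col8a2 replicate 3. The median log2 fold change of the members, 0.16, ranged from -0.11 without Col8a2 replicate 2 to 0.56 without Col8a2 replicate 1 when 1 library was left out, and was -0.203 without Tcf4+/- replicates 2 and 3. Of the 150 fold changes of single members under other settings, 20 had the opposite sign, none of them called. For Krt5 these were -0.034 with the replicate number as a block, -0.021 with limma voom, -0.26 on log2 TPM, and -0.19, -0.08, -0.30 and -0.09 without Col8a2 replicates 2 and 3 and Tcf4+/- replicates 1 and 3. For Krt12 they were 0.18 without Col8a2 replicate 1 and 0.35 without Tcf4+/- replicate 2, for Krt7 -0.14 without Col8a2 replicate 2, and for Krt13 -0.08, -0.19 and -0.16 without Col8a2 replicates 2 and 3 and Tcf4+/- replicate 3 and -0.009 on log2 TPM. Without Tcf4+/- replicates 2 and 3, a choice made after seeing the data, Krt15, Krt12, Krt8, Krt7, Krt4 and Krt13 stood at -0.17, 0.75, -0.42, -0.26, -0.63 and -0.23. Leaving out 1 library each, Krt5 ranged from -0.301 to 0.516, Krt12 from -0.966 to 0.347 and Krt13 from -0.191 to 0.707. The cause was not tested. The group mean shares of Krt12 and Krt15 moved by less than 1 SD with gene length or no length correction. That limit was wide in the Tcf4+/- group, with SDs of 25.1% for Krt12 and 17.3% for Krt15. Without length correction the means were 55.35% (Col8a2) and 41.63% (Tcf4+/-) for Krt12, and 10.66% and 22.23% for Krt15. Log2 levels with a prior count of 0.5 also moved by less than 1 SD. Shares taken from TPM were the same by construction, since library scaling cancels in a share, and are no separate check. Deviations of same-numbered samples of the groups had correlations of -0.05, 0.21 and -0.02, where the other combinations ran from -0.12 to 0.14. With 3 libraries in each group these values cannot decide whether the numbers pair samples, and the labels do not say. The block changed no call.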

Other observations

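In the Col8a2 libraries the ratios of 3 minor keratins to Krt12, chosen after their values were seen, lay close together while the total level differed. Their summed per-length level of the 10 keratins was 4231, 2125 and 2704, yet the ratio of Krt8 to Krt12 was 0.0108, 0.0114 and 0.0115, that of Krt4 to Krt12 was 0.0225, 0.0251 and 0.0247, and that of Krt19 to Krt12 was 0.0295, 0.0350 and 0.0311. In the Tcf4+/- libraries the same ratios were 0.00496, 0.124 and 0.0170 for Krt8, 0.00913, 0.237 and 0.0385 for Krt4, and 0.0186, 0.445 and 0.0648 for Krt19. Each Tcf4+/- library thus lay outside the Col8a2 range for all 3 ratios, replicate 1 below it and replicates 2 and 3 above it. Other members lay less close together in the Col8a2 libraries. The ratio of Krt13 to Krt12 was 0.0884, 0.0779 and 0.0463 there, and the shares of Krt18, Krt7 and Krt14 also varied. The position of the Tcf4+/- libraries was shared by Krt13 and Krt15, but not by every other member. The ratio was 0.0374, 0.374 and 0.1225 there for Krt13, and for Krt15 0.118, 2.65 and 0.515 against 0.174 to 0.240 in the Col8a2 libraries. Both were thus below the Col8a2 range in replicate 1 and above it in replicates 2 and 3. For Krt14 and Krt18, by contrast, the ratio to Krt12 in Tcf4+/- replicate 3 lay within the Col8a2 range. All these ratios share Krt12 as divisor. With 3 libraries in a group, no test of a difference in spread was made.

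Krt12 outweighed vimentin per length in every library, by 8.07, 3.58 and 12.6 times in the Col8a2 group and by 18.7, 1.26 and 7.22 times in the Tcf4+/- group. Against the keratocyte proteoglycan gene Kera it was higher in 5 of 6 libraries, with a ratio of 0.779 in Tcf4+/- replicate 2 and of 4.28 to 10.4 elsewhere.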
